A study of Mus musculus with 23 samples.

Results

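Mature luminal and stem cells of the virgin mouse mammary gland were set against each other on 7 of the 23 Affymetrix arrays of the series. The arrays were chosen by their labels: 3 mature luminal arrays, 1 from mice of 3 weeks and 2 from mice of 9 weeks, and 4 stem arrays, 2 from each age. All of them came from female virgin C57BL/6 mice, an inbred strain, and all cells were purified from digested mammary glands before messenger RNA was isolated. The remaining 16 arrays hold luminal progenitors of the same ages, and the 3 cell types from pregnant mice and retired breeders. The labels give no surface markers or sorting gates for any cell type, no pooling of animals, and no statement that the arrays of a group came from separate mice. All p-values below thus rest on the scatter among these arrays alone, and that scatter may be technical.

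The mammary ducts are a bilayer. An inner luminal layer faces the lumen and holds mature cells, many of which carry the oestrogen and progesterone receptors and relay hormone signals to their neighbours. An outer basal layer of myoepithelial cells contracts to eject milk, secretes basement membrane, and is the layer from which mammary stem cells are usually isolated. Basal cells are known for keratins 5 and 14, the transcription factor p63 and smooth muscle proteins, and luminal cells for keratins 8 and 18.

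Values are deposited signals on a log2 scale, on which a difference of 1 is a 2-fold difference. The 7 array medians lay between 4.63 and 5.47, and the 40th percentile, used here as a mark of low signal, lay between 3.68 and 4.42. Genes that exceeded this mark on 2 or more of the 7 arrays were tested, which were 14060 of 18193. Replicate arrays correlated at 0.922 for mature luminal cells of 9 weeks, 0.908 for stem cells of 3 weeks and 0.876 for stem cells of 9 weeks, over all probe sets. The Gapdh control signal exceeded its 5′ counterpart at the 3′ end by 5.16 on the 3-week mature luminal array, against 1.3 to 2.11 on the other 6, a ratio commonly read as a measure of RNA integrity. Per-array values below are listed for mature luminal cells of 3 weeks and of 9 weeks, replicates 1 and 2, and then for stem cells of 3 weeks, replicates 1 and 2, and of 9 weeks, replicates 1 and 2.

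With age in the model, 182 genes differed between the cell types at an adjusted p under 0.05 (limma, Benjamini-Hochberg), of which 165 were lower in mature luminal than in stem arrays (1.17% of the genes tested) and 17 were higher (0.121%). The median difference over all genes tested was 0.16, on the side of the mature luminal arrays, and 8335 genes had a positive difference and 5725 a negative one. At an unadjusted p under 0.05, 845 genes were higher and 1017 lower, against which the unadjusted counts of the lists below can be read. The mature luminal and stem arrays did not overlap in 156 of the 182 genes. Over all genes tested, 4.89% had all mature luminal arrays below the stem arrays and 6.19% had them above. In the 182 genes the difference had the same sign at 3 and at 9 weeks throughout, which their selection on the same arrays favours. When the replicate number in the array titles was added as a term, 764 genes were called, 567 lower (4.03%) and 197 higher (1.4%), and the first 182 were all among them. That term treats the unnumbered 3-week mature luminal array like the arrays not titled replicate 1. A block on the 6 numbered arrays alone called 468 genes lower and 20 higher.

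The counts depended on single arrays. Without the 3-week mature luminal array, 100 genes were called, 99 lower (0.704%) and 1 higher (0.00711%), and 69 of the 182 were among them. Without replicate 2 of the 9-week mature luminal arrays 13 genes were called, without replicate 2 of the 3-week stem arrays 3 (Actg2, Lyve1 and Mgp), and without replicate 1 of the 9-week stem arrays 2 (Crisp3 and Mgp). Leaving out any other array left between 149 and 159 calls. All 182 genes kept their sign with each of the 7 arrays left out in turn, and their difference moved by less than 1.5 times. Their unadjusted p (limma) stayed at or below 0.0145. Because the 182 were selected on these same arrays, this outcome was largely fixed in advance. When the mean of all probe sets of a gene was used, 147 genes were called. Of the called genes named in the text, Acta2, Zeb1, Egfl7, Cldn5, Postn, Fabp4, Fn1, Col18a1, Lamb1, Sparc, Itgb3, Itga9, Notch4, Nrp2, Reln, Dmp1, Cftr, Klk1, Slc6a14 and Ifi47 then lost their call.

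Among genes known from basal cells, the clearest difference lay in those of smooth muscle proteins. Of the 21 contractile apparatus genes tested, 5 were lower in mature luminal cells, 0 were higher, and 16 were not called. A negative difference was found in 20 of the 21, and 14 were lower at an unadjusted p under 0.05 (limma). The median difference of the list was -2.34, against 0.16 for all genes. The 5 were Actg2, Myl9, Cnn1, Tagln and Acta2, and in each the mature luminal arrays lay below every stem array. Endothelial and pericyte markers had median differences of -3.56 and -0.91, with 16 of 16 and 5 of 8 negative. Their part in the contractile values was not tested.

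Actg2 encodes the gamma actin of smooth muscle. It read 2.95, 3.73 and 2.73 on the mature luminal arrays and 8.33, 8.43, 9.18 and 10.70 on the stem arrays, a difference of -6.20 ± 0.62 (standard error) with an adjusted p of 0.0091. Of the 3 mature luminal values, 2 lay below the 40th percentile of their arrays, so the size of this difference includes background. Myl9, the regulatory light chain of smooth muscle myosin, read 5.89, 5.32 and 4.34 against 9.72, 10.60, 9.72 and 12.14, a difference of -5.37 ± 0.71 (adjusted p 0.0171). Cnn1, which encodes the actin-binding protein calponin, read 6.83, 4.22 and 5.23 against 9.17, 10.70, 10.05 and 11.91 (-4.99 ± 0.80, adjusted p 0.0259). In all 3 genes the highest value was that of the 9-week stem array of replicate 2.

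Tagln, the actin-associated protein transgelin, read 8.56, 7.11 and 6.76 in mature luminal cells and 10.66, 11.19, 11.25 and 12.63 in stem cells (-3.95 ± 0.60, adjusted p 0.0238). Acta2, the alpha actin of smooth muscle, read 11.01, 9.14 and 8.44 against 12.65, 13.20, 12.82 and 13.77 (-3.47 ± 0.52, adjusted p 0.0227). The 3-week array was the highest of the mature luminal arrays for both genes. Myh11, the smooth muscle myosin heavy chain, had the same order of mature luminal arrays and no overlap, but did not pass. It read 7.42, 4.27 and 4.13 against 8.72, 10.23, 8.50 and 11.92 (-4.43 ± 1.0, adjusted p 0.0702). With the replicate term it passed (adjusted p 0.0082), and the list then held 9 genes called lower. A second Acta2 probe set gave a smaller difference of -1.62, and the mean of its probe sets gave -1.97 (adjusted p 0.156).

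The contractile count was 6 without the 3-week mature luminal array. It was 1 without replicate 2 of the 9-week mature luminal arrays, 1 without replicate 2 of the 3-week stem arrays and 0 without replicate 1 of the 9-week stem arrays, while the median of the list stayed between -2.97 and -1.45 over all 7 omissions.

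Smooth muscle genes are classic targets of serum response factor, which binds the CArG box, a pair of C, 6 bases that are A or T, and a pair of G. The promoters of 3 of the called genes are shown because the contractile genes moved together and this box is the element best known for them. The windows are the 250 bases upstream of the annotated start in RefSeq (GRCm38.p6), read 5′ to 3′ on the gene's strand. Myl9 lies on the plus strand at chr2:156775214-156775463, Acta2 on the minus strand at chr19:34255374-34255623 and Cnn1 on the plus strand at chr9:22099003-22099252. Capitals mark CArG boxes, exact or with 1 of the 6 inner bases being G or C. The box reads alike on both strands.
Myl9: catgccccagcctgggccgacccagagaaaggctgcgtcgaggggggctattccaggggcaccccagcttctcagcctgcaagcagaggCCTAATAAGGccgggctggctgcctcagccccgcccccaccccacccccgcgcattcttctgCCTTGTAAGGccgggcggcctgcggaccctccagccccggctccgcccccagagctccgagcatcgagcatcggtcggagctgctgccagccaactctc
Acta2: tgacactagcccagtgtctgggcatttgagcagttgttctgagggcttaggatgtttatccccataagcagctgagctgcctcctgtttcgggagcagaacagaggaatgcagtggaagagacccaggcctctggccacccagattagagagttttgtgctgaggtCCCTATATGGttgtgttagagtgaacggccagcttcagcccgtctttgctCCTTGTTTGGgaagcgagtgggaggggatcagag
Cnn1: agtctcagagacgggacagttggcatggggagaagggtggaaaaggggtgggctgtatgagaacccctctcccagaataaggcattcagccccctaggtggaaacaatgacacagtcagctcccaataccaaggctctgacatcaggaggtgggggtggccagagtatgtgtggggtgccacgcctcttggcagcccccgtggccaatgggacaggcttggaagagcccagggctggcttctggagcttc
The Myl9 window held 1 exact box, CCTAATAAGG, beginning 161 bases before the start, and 1 box with a deviating base, CCTTGTAAGG. Acta2 held 2 boxes with a deviating base, CCCTATATGG at 84 and CCTTGTTTGG at 34 bases before the start. Cnn1 held neither kind in this window. Of the 22 listed contractile genes 17 were in the promoter table, and 2 of these held an exact box (Myl9 and Srf), against 1.62% of all 27025 genes with a promoter there. With 1 deviating base allowed the numbers were 4 of 17 against 9.78%. A match of letters is not a bound site.

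The keratin genes Krt5 and Krt14 and the transcription factor genes Trp63 and Snai2 were not called. Krt5 read 11.17, 11.81 and 7.35 on the mature luminal arrays and 10.50, 10.27, 11.64 and 11.77 on the stem arrays, a difference of -0.96 ± 0.95 (adjusted p 0.727). Trp63, the gene of p63, read 10.91, 11.54 and 6.43 against 10.43, 10.61, 10.97 and 12.23 (-1.41 ± 1.08, adjusted p 0.631). The 3-week mature luminal array and replicate 1 of 9 weeks thus lay within or above the stem range for both genes, and only replicate 2 of 9 weeks was low. Krt14 had the same order of mature luminal arrays, at 12.77, 12.88 and 10.84 against 12.13, 12.57, 12.76 and 13.41 (-0.57 ± 0.50, adjusted p 0.687). Its other 2 probe sets gave -1.77 and -1.45, and a second Trp63 probe set gave 0.22. Snai2, a repressor known from basal mammary cells, read 10.83, 9.54 and 6.23 against 10.58, 11.26, 11.12 and 11.68 (-2.14 ± 0.87, adjusted p 0.317). None of these 4 genes passed with the replicate term either.

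**Figure D1:**
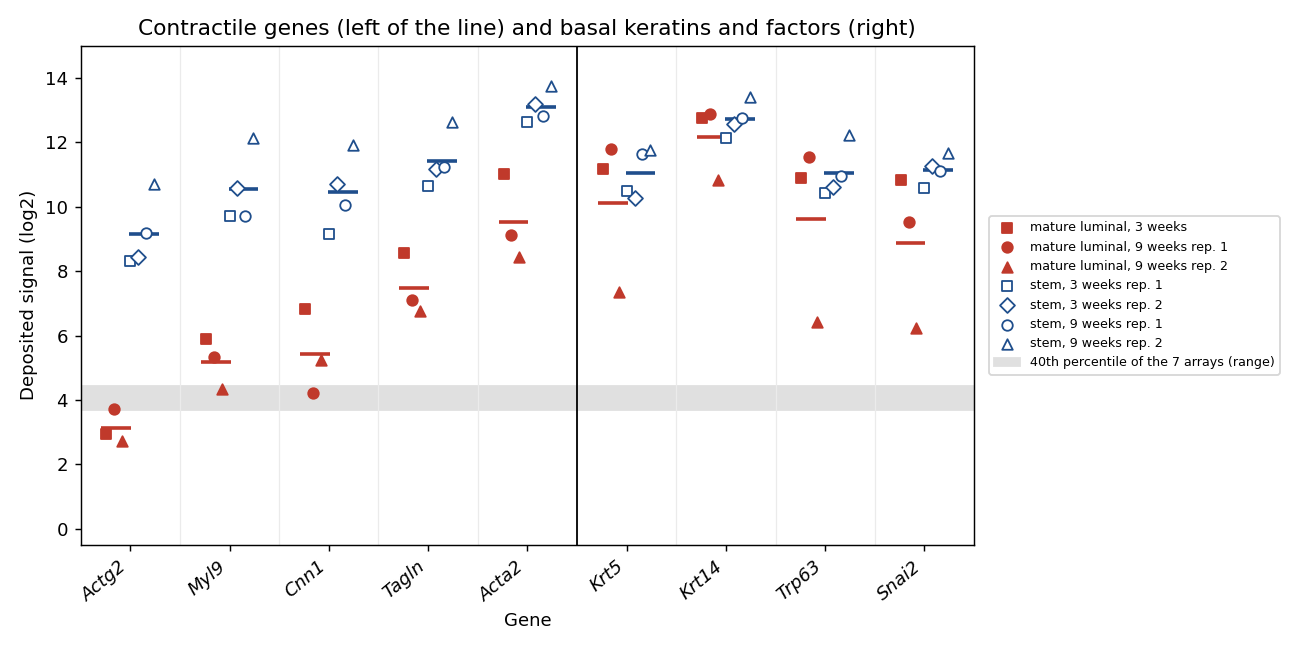
Deposited log2 signal of 5 contractile genes and 4 basal genes on each of the 7 arrays, with red filled symbols for mature luminal and blue open symbols for stem arrays, and bars at the group means. For the contractile genes every red symbol lies below every blue one, whereas for Krt5, Krt14, Trp63 and Snai2 the 3-week mature luminal array lies within or above the range of the stem arrays.

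Over the whole list of 17 basal and myoepithelial markers, 4 were lower in mature luminal cells and 0 higher, and these 4 (Actg2, Acta2, Tagln and Cnn1) are contractile genes that both lists hold. All 17 differences were negative, with a median of -1.81, 10 were lower at an unadjusted p under 0.05, and 8 were called lower with the replicate term. The count was 6 without the 3-week mature luminal array, 1 without replicate 2 of the 9-week mature luminal arrays, 1 without replicate 2 of the 3-week stem arrays, 0 without replicate 1 of the 9-week stem arrays, and 4 or 5 without any other. The mean of the list was 9.17, 8.87 and 7.08 on the mature luminal arrays and lay between 10.01 and 11.92 on the stem arrays. Among 21 basal transcription factors, 1 was called, Zeb1, a zinc finger repressor known from mesenchymal cells. It read 9.76, 6.71 and 6.15 against 11.54, 11.70, 9.80 and 9.96 (-2.81 ± 0.46, adjusted p 0.0278, and -1.53 with an adjusted p of 0.269 for the mean of its probe sets). Of the 21, 17 had a negative difference, with a median of -1.41, or -2.62 without the 3-week mature luminal array. At an unadjusted p under 0.05, 11 were lower and 2 higher, and with the replicate term 4 were called lower and 1 higher.

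Endothelial genes formed the largest called group of any list. Of 16 markers of blood vessel endothelium tested, 11 were lower in mature luminal than in stem arrays and none was higher, with a median difference of -3.56. With the replicate term 14 of the 16 were lower. In bulk samples, fewer cells of a type and less RNA per cell cannot be told apart.

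Pecam1, the junctional adhesion molecule CD31, read 6.01, 5.43 and 4.63 on the mature luminal arrays and 10.17, 10.23, 8.43 and 8.50 on the stem arrays (-3.74 ± 0.49, adjusted p 0.0171). Erg, an ETS-family transcription factor of endothelium, read 5.56, 1.26 and 2.48 against 8.92, 9.58, 6.82 and 7.07 (-4.52 ± 0.61, adjusted p 0.0171). Tie1, an endothelial receptor tyrosine kinase, read 7.27, 4.5 and 3.99 against 9.97, 10.66, 8.29 and 8.40 (-3.68 ± 0.51, adjusted p 0.0185). In all 3 genes the 3-week stem arrays were the highest, and the 3-week mature luminal array was the highest of its group.

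The other called endothelial markers had the same direction. Emcn, an endothelial sialomucin, differed by -4.18 ± 0.65, Tek, the angiopoietin receptor, by -4.08 ± 0.70, and Cldn5, the tight junction protein of vessels, by -3.97 ± 0.79. Sox17 (-3.66), Esam (-3.46), Flt1 (-3.34), Plvap (-2.76) and Egfl7 (-2.68) completed the 11, with adjusted p-values of the 8 genes between 0.0171 and 0.0462. Cdh5, the cadherin of endothelial junctions (-3.76 ± 0.77, adjusted p 0.0512), and Kdr, the main receptor of vascular endothelial growth factor (-3.46 ± 0.73, adjusted p 0.0554), narrowly missed the threshold. Both passed with the replicate term (adjusted p 0.0045 and 0.00777).

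**Figure D2:**
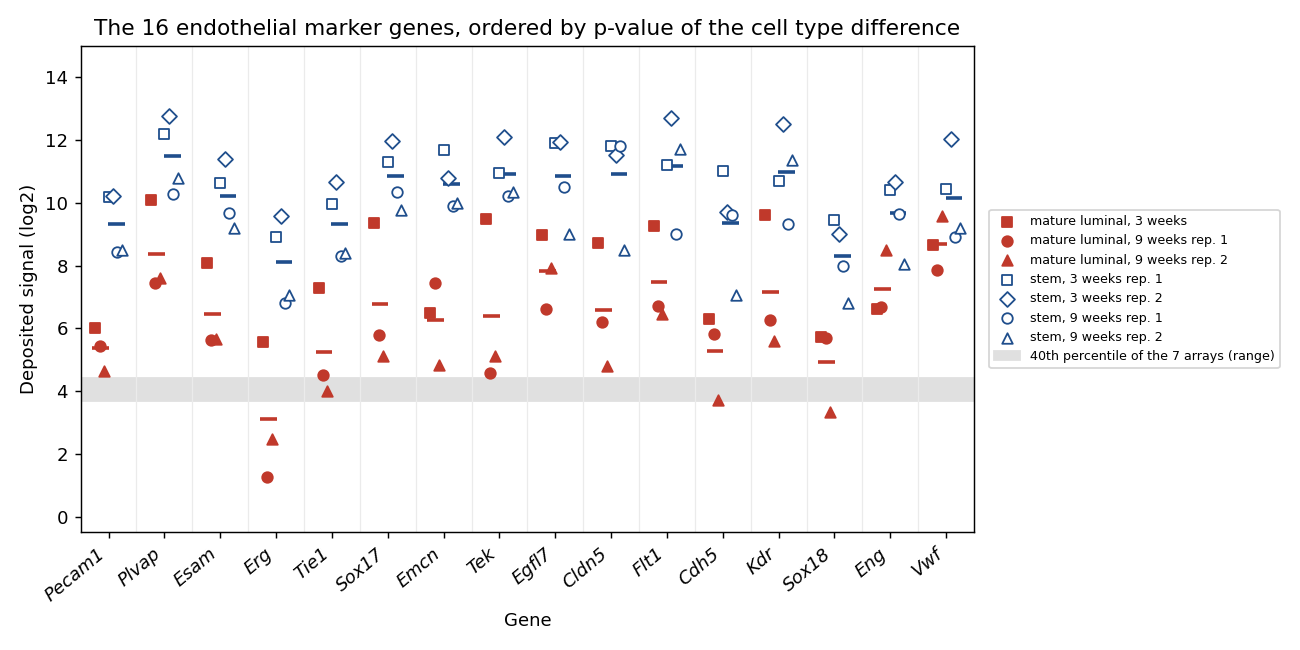
Deposited log2 signal of the 16 endothelial marker genes on the 7 arrays, ordered by p-value, with red filled symbols for mature luminal arrays, blue open symbols for stem arrays and bars at the group means. Pecam1 on the stem arrays lies between 8.43 and 10.23, above all 3 mature luminal arrays.

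Vessel genes outside the list, named after their values were seen, were also called. Flt4, the receptor for lymphatic growth factors, read 4.92, 3.42 and 3.13 against 9.69, 8.64, 7.95 and 7.94 (-4.5 ± 0.53, adjusted p 0.0131). Lyve1, a hyaluronan receptor of lymphatic vessels, differed by -4.80 ± 0.70 (adjusted p 0.0215), and Cd34, a sialomucin of endothelium and some progenitors, by -3.07 ± 0.50 (adjusted p 0.0271). The whole endothelial list averaged 7.89, 5.87 and 5.58 on the mature luminal arrays and 10.80, 11.22, 9.42 and 9.11 on the stem arrays. No member lay below the 40th percentile on any of the 4 stem arrays. Without the 3-week mature luminal array 6 members were called, and 0 were called without replicate 2 of the 9-week mature luminal arrays, without replicate 2 of the 3-week stem arrays or without replicate 1 of the 9-week stem arrays. With any 1 array left out, at least 14 of the 16 were lower at an unadjusted p under 0.05.

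Of the markers of further cell types few were called. Of 11 fibroblast genes 10 had a negative difference, with a median of -2.37, 7 were lower at an unadjusted p under 0.05, and 4 were called lower with the replicate term. The list averaged 7.57, 5.79 and 4.31 on the mature luminal arrays and 8.78, 8.47, 8.17 and 7.86 on the stem arrays, without overlap. Postn, a matricellular protein of stroma, was the only one of the 11 called without that term, at 8.52, 7.74 and 5.39 against 11.06, 11.41, 10.66 and 12.95 (-4.23 ± 0.78, adjusted p 0.0364). Fabp4, a lipid carrier of adipocytes and capillary endothelium, was the only one of 3 adipocyte genes tested that was called (-2.66 ± 0.47, adjusted p 0.0317). None of 8 pericyte genes was called by limma (1.29% of all genes were), with 3 lower at an unadjusted p under 0.05. Rgs5, their best known marker, read 9.85, 5.19 and 5.48 against 10.34, 11.88, 9.98 and 9.40 (-3.12 ± 0.69, adjusted p 0.0651, and 0.017 with the replicate term).

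The 3-week mature luminal array carried the most blood cell signal. Its mean over the 16 leukocyte markers with a probe set, tested or not, was 9.11, against 4.81 to 6.93 on the other 6 arrays. Over 7 such erythroid and platelet genes it was 7.70, against 3.27 to 6.18. Ptprc, the leukocyte surface protein CD45, read 9.44, 3.95 and 6.27 in mature luminal cells and 5.44, 7.55, 4.34 and 5.69 in stem cells. Hbb-b2, a beta globin, read 13.09, 3.75 and 5.28 against 8.83, 12.58, 6.26 and 3.97. Of the leukocyte list none of the 15 genes tested was called by limma, against 1.29% of all genes. Of the 15, 3 were higher at an unadjusted p under 0.05. Their median difference was 2.94 at 3 weeks and 0.16 at 9 weeks. Whether these cells have a part in the differences of the 3-week array was not tested.

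**Figure D3:**
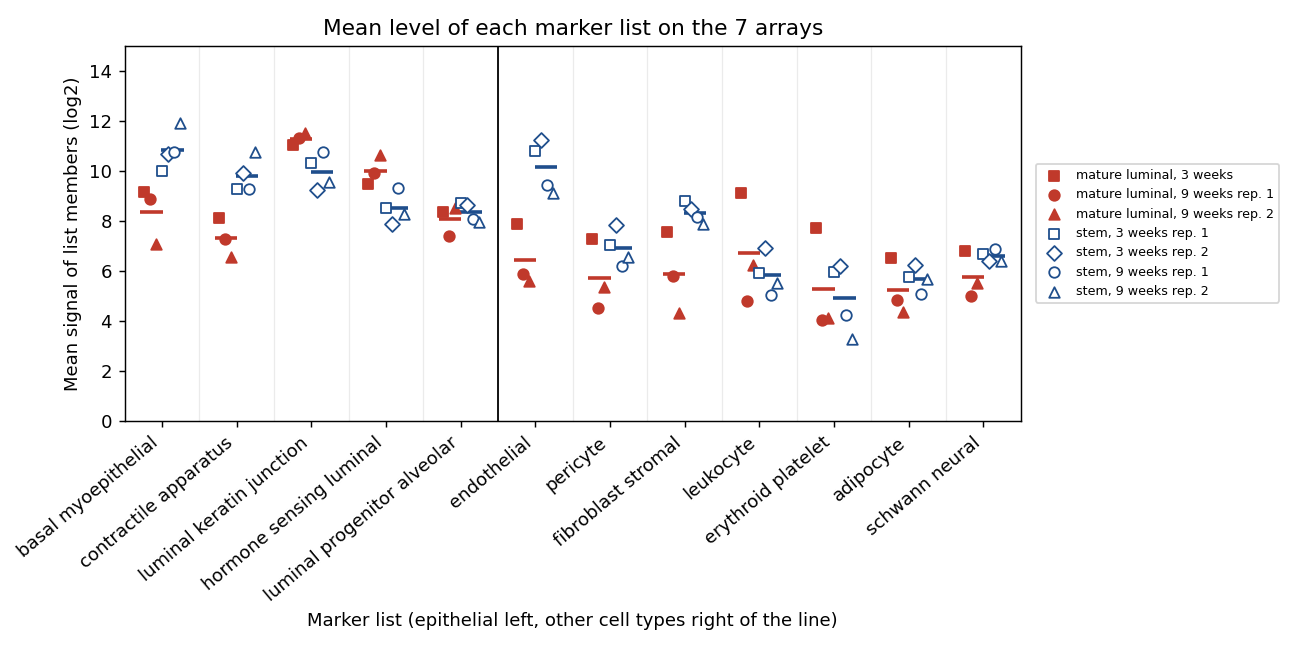
Mean deposited log2 signal of 12 marker lists on each of the 7 arrays, over all members with a probe set, tested or not. Red filled symbols show mature luminal arrays, blue open symbols stem arrays, and bars the group means. The stem arrays lie above the mature luminal arrays for the endothelial list, and the 3-week mature luminal array stands highest for the leukocyte list at 9.11.

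Extracellular matrix genes were lower in mature luminal cells as well. Of 24 basement membrane genes 7 were lower and 0 higher, with a median difference of -1.95, and 11 were lower with the replicate term. At an unadjusted p under 0.05 (limma) 13 were lower and 0 higher. Col4a1 and Col4a2 encode the chains of type IV collagen, the network of the basement membrane. Col4a1 read 10.70, 9.01 and 7.87 against 12.75, 12.59, 12.26 and 12.49 (-3.15 ± 0.46, adjusted p 0.0215), and Col4a2 differed by -3.63 ± 0.60 (adjusted p 0.0279). The 4 stem values of Col4a1 lay within a range of less than 1 unit, whereas the mature luminal values were spread from 7.87 to 10.70.

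The other called members were Sparc, a collagen-binding glycoprotein (-3.20), Fn1, fibronectin (-2.97), Lamb1, a laminin chain (-2.96), Col18a1, the precursor of endostatin (-2.74), and Nid2, a laminin-binding nidogen (-2.67), with adjusted p-values from 0.0427 to 0.0455. A further probe set of Fn1 gave -1.11, and the other 2 of Lamb1 gave -3.28 and -1.40, so that the means of their probe sets were -2.04 and -1.86 (adjusted p 0.293 and 0.173). Nid2 lost its call when values under the array median were raised to it (adjusted p 0.0852). The basement membrane count was 4 without the 3-week mature luminal array, 3 without replicate 2 and 0 without replicate 1 of the 9-week stem arrays, 0 without replicate 2 of the 9-week mature luminal arrays, 4 without their replicate 1, 4 without replicate 1 of the 3-week stem arrays and 0 without their replicate 2. Its median stayed between -2.51 and -1.51. Endothelial and fibroblast markers moved with these genes, at medians of -3.56 and -2.37, and their part in the matrix values was not tested.

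Among 20 integrins and adhesion genes 2 were lower. Itgb3, the beta 3 integrin (CD61), read 4.97, 4.20 and 3.16 against 9.77, 8.04, 8.46 and 7.26 (-4.08 ± 0.64, adjusted p 0.0249), although a second probe set gave -0.95 and the mean of both -2.52 (adjusted p 0.11). Itga9, an integrin that binds tenascin, differed by -3.39 ± 0.61 (adjusted p 0.034), its other probe sets by -1.99 and -0.90, and the mean of all by -2.09 (adjusted p 0.132). Itga1, a collagen receptor chain, read 7.23, 3.15 and 4.97 against 9.77, 11.50, 7.50 and 11.69 and missed the threshold (-4.68 ± 1.02, adjusted p 0.06, and 0.00221 with the replicate term).

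Itga6 and Itgb1, whose products are used with Cd24a and Epcam to sort mammary populations, were not called. Itga6 read 12.22, 12.16 and 12.68 against 12.03, 12.42, 11.85 and 13.10 (-0.03 ± 0.31). Itgb1 read 8.24, 11.59 and 9.31 against 11.20, 9.53, 11.16 and 10.54 (-1.09 ± 0.66). Cd24a differed by 0.29 ± 0.14 and Epcam by 0.58 ± 0.44, and the levels of both were high on all 7 arrays, at 13.57 or more for Cd24a and 10.77 or more for Epcam.

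The rule for named genes took up to 12 genes in each direction, those with the largest called differences whose arrays do not overlap. Fewer than 12 met it in the higher direction. Beside Actg2 and Myl9, 10 further genes formed the lower set. Col13a1, a transmembrane collagen, shared the largest difference with Actg2, at 4.18, 1.41 and 2.49 against 8.73, 9.30, 9.44 and 8.69 (-6.20 ± 0.67, adjusted p 0.0091). Il17b, an interleukin 17 family cytokine and the only called gene among 19 cytokines and chemokines, read 3.85, 3.27 and 0.46 against 7.06, 7.58, 8.33 and 10.04 (-5.78 ± 0.99, adjusted p 0.029). Cytl1, a small secreted protein, read 5.99, 2.85 and 4.12 against 10.11, 11.66, 9.32 and 9.74 (-5.58 ± 0.60, adjusted p 0.0091). The mature luminal values of Col13a1 and Il17b were all below the 40th percentile of their arrays.

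Ecrg4, the precursor of a secreted peptide, differed by -5.48 ± 0.90, and the fibrillar collagen gene Col5a2 by -5.33 ± 1.0. Reln, the large secreted glycoprotein reelin, differed by -5.17 ± 0.88 and was 1 of 2 called genes among 28 axon guidance genes. With the mean of its probe sets the Reln difference was -2.45 (adjusted p 0.111). Dmp1, an acidic protein of mineralised matrix (-5.13), Stmn2, a regulator of microtubules (-5.11), Col14a1, a fibril-associated collagen (-5.07), and Dysf, a membrane repair protein of muscle (-5.02), completed the set, with adjusted p-values from 0.0091 to 0.0422. Dmp1 lost its call when values under the array median were raised to it (adjusted p 0.165) and read 0.00 on replicate 1 of the 9-week mature luminal arrays. Further probe sets gave -2.36 for Stmn2 and -4.54 and -1.43 for Col14a1.

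Mgp, the matrix Gla protein that inhibits calcification, falls outside that set because its difference is smaller, and it is named after its values were seen. It read 9.07, 8.43 and 8.95 against 12.49, 12.60, 11.82 and 12.55 (-3.49 ± 0.32, adjusted p 0.0091). The spread within each group was under 1 unit, and Mgp was called in each of the 3 omissions that left 13 or fewer genes. Lgals1, the lectin galectin 1, read 11.81, 9.39 and 9.92 against 12.65, 13.07, 13.44 and 13.73 (-2.78 ± 0.52, adjusted p 0.0364).

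Among signalling genes the calls were few, but more were lower at an unadjusted p under 0.05 (limma). These were 10 of 18 Notch pathway genes and 9 of 29 TGF-beta and BMP genes. Of axon guidance genes they were 9 of 28, and of cytokines and chemokines 8 of 19. In these lists 0 were higher at that level, and over all 14060 genes 1017 were lower. Of the Notch pathway genes 2 were called lower, the receptor Notch4 and the ligand Dll4, both known from endothelium. Notch4 read 6.62, 3.68 and 4.30 against 8.68, 9.88, 7.80 and 8.12 (-3.45 ± 0.57, adjusted p 0.0279), and -2.07 (adjusted p 0.101) for the mean of its probe sets. Dll4 read 4.78, 3.74 and 4.44 against 8.32, 8.43, 7.56 and 6.66 (-3.25 ± 0.55, adjusted p 0.029). Hey1, a Notch target gene, differed by -2.67 ± 0.56 without passing (adjusted p 0.0536, and 0.00863 with the replicate term). Endothelial markers moved with these genes, and their part in the Notch values was not tested.

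Of 29 genes of the TGF-beta and BMP pathways 2 were called lower. They were Ltbp4, a latent TGF-beta binding protein (-3.02 ± 0.54, adjusted p 0.0317), and Id1, a BMP target (-3.27 ± 0.60, adjusted p 0.0347). Of the axon guidance genes the second one called was Nrp2, a co-receptor for semaphorins and lymphatic growth factor, at 9.05, 7.16 and 5.23 against 11.51, 11.41, 9.30 and 9.25 (-2.81 ± 0.53, adjusted p 0.0372). None of 30 Wnt pathway genes was called by limma, where 1.29% of all genes were, and 4 were lower and 1 higher at an unadjusted p under 0.05. Wif1, a secreted Wnt inhibitor, read 4.55, 0.00 and 2.22 against 6.18, 7.51, 6.90 and 9.51 (-5.17 ± 1.13, adjusted p 0.0617), and passed with the replicate term (adjusted p 0.00493).

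Procr, the protein C receptor, marks a mammary stem cell population and is also found on endothelium. It read 11.08, 9.84 and 7.41 against 13.03, 12.68, 12.34 and 10.82 (-2.48 ± 0.60, adjusted p 0.091, and 0.0215 with the replicate term). Lgr5, the R-spondin receptor, read 5.99, 1.34 and 1.31 against 0.00, 7.84, 1.73 and 9.72, so both replicate 2 stem arrays were high and both replicate 1 stem arrays were at or near the bottom (-1.81 ± 2.29, adjusted p 0.797). None of 14 genes of the ERBB family and its ligands was called by limma, against 1.29% of all genes. Of the 14, 4 were higher and 3 lower at an unadjusted p under 0.05. With the replicate term Ereg, the ligand epiregulin, was lower (adjusted p 0.0193), and Nrg4 and the receptor Erbb3 were among 4 that were higher (adjusted p 0.0277 and 0.0333).

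Interferon response genes had a median difference of -1.06, but the 2 cell types overlapped. The list averaged 8.35, 8.25 and 7.80 on the mature luminal arrays and 10.83, 9.87, 10.08 and 8.20 on the stem arrays. Its median was -1.82 within replicate 1 of 9 weeks and -0.51 within the arrays not titled replicate 1. With 1 array left out, 0 to 3 of its members were called. All 13 tested had a negative difference, and 1 was called, Ifit2, which binds viral RNA, at 5.92, 5.33 and 3.43 against 10.34, 9.46, 8.27 and 7.91 (-3.82 ± 0.60, adjusted p 0.0249). In all 4 were called with the replicate term, as Ifit3 (-2.84), Rsad2 (-2.60) and Ifit1 (-2.27) joined it (adjusted p 0.0078, 0.00269 and 0.0376), although one other Rsad2 probe set gave 0.15. Outside the list, the interferon-induced GTPase genes Igtp (-1.57 ± 0.31), Ifi47 (-2.19 ± 0.43) and Gbp6 (-1.87 ± 0.36) were called, with adjusted p-values of 0.0422, 0.0431 and 0.0413. They are named after their values were seen.

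On the luminal side no hormone receptor or luminal keratin passed. All 12 hormone-sensing genes tested had a positive difference, with a median of 1.42. By limma 0 were called, against 0.121% of all genes called higher, and 7 had an unadjusted p under 0.05. Pgr, the progesterone receptor, read 11.68, 11.60 and 11.75 on the mature luminal arrays and 9.86, 9.96, 10.77 and 9.99 on the stem arrays, a difference of 1.49 ± 0.33 (adjusted p 0.0621). Esr1, the oestrogen receptor alpha, read 11.66, 10.95 and 11.97 against 10.26, 10.20, 10.53 and 9.79 (1.35 ± 0.36, adjusted p 0.121). Both genes were higher on each mature luminal array than on any stem array, and 6.19% of all genes tested had such a separation in this direction. The stem arrays themselves held 9.79 or more of either receptor, well above their medians.

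Foxa1, the pioneer factor that acts with the oestrogen receptor, read 10.58, 11.08 and 11.91 against 9.67, 8.79, 10.41 and 9.32 (1.52 ± 0.43, adjusted p 0.14). Wnt4, a ligand induced by progesterone, read 9.61, 8.10 and 11.29 against 5.92, 6.89, 7.09 and 6.69 (2.97 ± 0.74, adjusted p 0.0987). With the replicate term Pgr, Foxa1 and Wnt4 passed (adjusted p 0.0205, 0.044 and 0.0308), and Esr1 did not (0.0521). On the 6 numbered arrays with the block none of these 3 passed (adjusted p 0.158, 0.171 and 0.116). Gata3, a factor of luminal fate, differed by 0.51 ± 0.50 (adjusted p 0.72), with replicate 2 of the 9-week stem arrays at 11.0, the highest of the 7.

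Keratins 8 and 18 were high on all 7 arrays. All 20 luminal keratin and junction genes tested had a positive difference (median 1.07). By limma 0 were called, against 0.121% of all genes called higher, and 7 had an unadjusted p under 0.05. With the replicate term 7 were called. Krt8 read 13.73, 13.75 and 13.78 against 13.33, 12.69, 13.55 and 12.68 (0.68 ± 0.24, adjusted p 0.244, and 0.0426 with the term). Krt18 read 13.07, 13.88 and 13.45 against 13.48, 12.19, 13.71 and 12.31 (0.49 ± 0.38, adjusted p 0.643). The 2 replicate 1 stem arrays were above the 2 replicate 2 stem arrays for both keratins. Cldn8, a claudin of tight junctions, had the smallest p of the list (3.17 ± 0.84, adjusted p 0.116, and 0.013 with the term).

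Of 23 luminal transcription factors 21 had a positive difference. By limma 0 were called, against 1.29% of all genes, and 8 were higher at an unadjusted p under 0.05. Tfcp2l1, a factor of ductal epithelia, came nearest, at 11.74, 9.48 and 9.83 against 8.09, 8.17, 8.48 and 7.14 (2.55 ± 0.54, adjusted p 0.0563), and passed with the replicate term (adjusted p 0.0204), with which 5 of the 23 were called higher. Elf5, the regulator of alveolar fate, read 11.28, 7.45 and 8.59 against 7.31, 7.90, 8.37 and 6.24 (1.90 ± 0.77, adjusted p 0.318). Kit, the receptor tyrosine kinase of luminal progenitors, read 8.75, 6.33 and 7.52 against 10.05, 9.17, 7.26 and 6.81 (-0.41 ± 0.53, adjusted p 0.802). Of the 15 progenitor and alveolar genes, Itgb3 was the only one called. Prlr, the prolactin receptor, was not above the filter and was not tested.

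The 17 genes that were higher in mature luminal cells were not the textbook luminal markers. Crisp3, a cysteine-rich secretory protein, read 12.34, 9.42 and 9.35 against 7.31, 7.24, 5.95 and 4.5 (4.52 ± 0.53, adjusted p 0.0131). It was the only one of the 17 also called without the 3-week mature luminal array (adjusted p 0.0463). Cftr, the chloride channel mutated in cystic fibrosis, read 9.72, 5.93 and 4.94 against 2.66, 4.17, 1.81 and 1.66 (4.74 ± 0.80, adjusted p 0.0286). Its stem values were all below the 40th percentile, so the difference is from background. Arg1, which turns arginine into ornithine, read 10.23, 6.88 and 7.99 against 4.17, 6.46, 4.06 and 3.95 (4.02 ± 0.71, adjusted p 0.0317).

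For these 3 genes the 3-week array was the highest mature luminal array, by 2 units or more. Rbm20, a splicing factor, had the opposite order, at 9.49, 10.88 and 11.52 against 7.45, 6.79, 9.03 and 8.38 (2.45 ± 0.44, adjusted p 0.0325). Cxcl17, a mucosal chemokine, read 11.56, 9.55 and 10.48 against 8.13, 8.56, 8.09 and 5.89 (3.10 ± 0.58, adjusted p 0.0372). Among 20 solute transport genes, Cftr, the proton pump subunit Atp6v0d2 (4.39 ± 0.81, adjusted p 0.0364) and the amino acid transporter Slc6a14 (3.69 ± 0.72, adjusted p 0.0427) were higher and 0 were lower.

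Klk1, tissue kallikrein, read 13.11, 12.78 and 10.91 against 9.95, 9.62, 8.99 and 6.11 (3.91 ± 0.70, adjusted p 0.0327). Egfbp2 (4.93 ± 0.89, adjusted p 0.034) and Klk1b11 (4.53 ± 0.86, adjusted p 0.0378) are near-identical copies in the same gene family, and their probe sets may not tell the copies apart, so which kallikrein was measured is uncertain. Of the other Klk1 probe sets 2 gave 3.98 and 4.17 and 1 gave 0.12. The remaining genes of the set with separate arrays were Naip6, an inflammasome receptor (3.64), Acaa1b, a peroxisomal thiolase (3.26), and Ckmt1, a mitochondrial creatine kinase (3.02). When values under the array median were raised to it, 10 of the 17 were called, and Egfbp2, Cftr, Klk1b11, Atp6v0d2, Slc6a14, Naip6 and Ckmt1 were not.

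**Figure D4:**
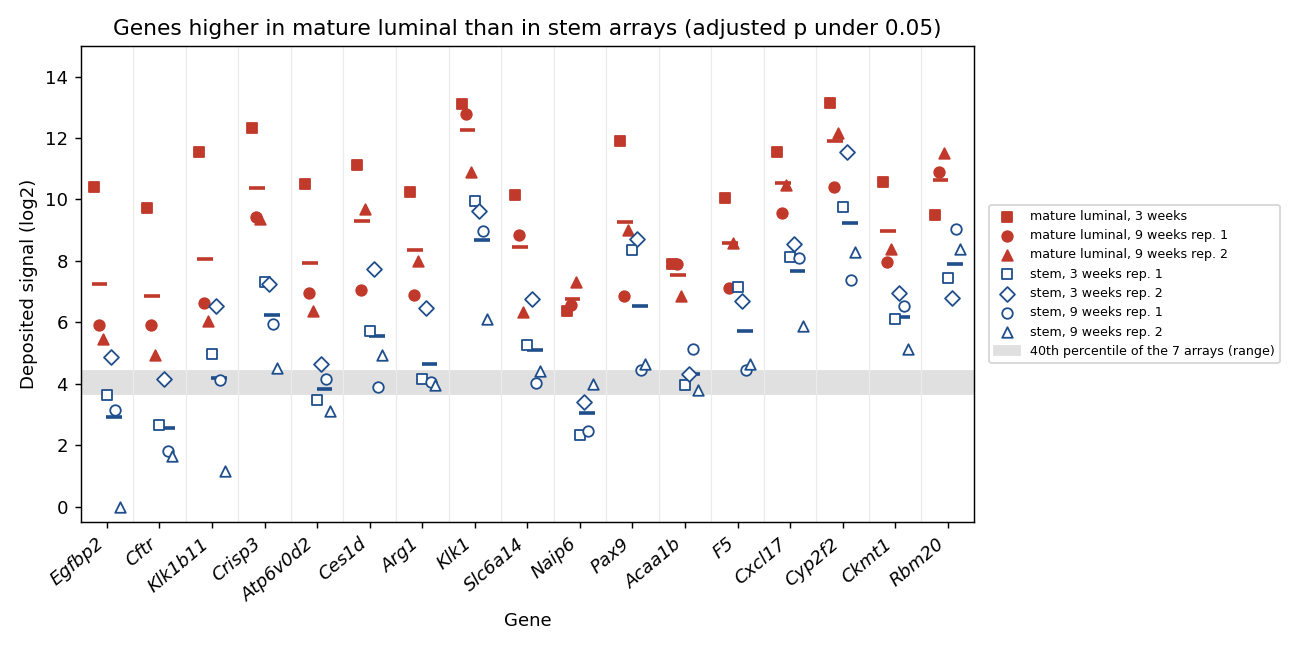
Deposited log2 signal of the 17 genes called higher in mature luminal cells, on each of the 7 arrays, with red filled symbols for mature luminal arrays, blue open symbols for stem arrays and bars at the group means. Crisp3 reached 12.34 on the 3-week mature luminal array, and many of the stem values, such as those of Cftr, lie at or below the grey band of the 40th percentiles.

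No gene was called, in the main fit or with the replicate term, among the cell cycle (29 tested), immediate early (18), DNA methylation (15), ribosomal protein (14) and oxidative phosphorylation (19) genes. Over all genes tested 1.29% were called in the main fit and 5.43% with the term, so 0 calls in such short lists say little. The medians of these lists lay between -0.13 and 0.39. At an unadjusted p under 0.05 (limma), 1 of the cell cycle genes was lower and 2 of the oxidative phosphorylation genes were higher, and all 19 of the latter had a positive difference. In fatty acid and triglyceride synthesis 0 of 18 were called by limma, against 1.29% of all genes. Of the 18, 4 were higher and 3 lower at an unadjusted p under 0.05. With the replicate term the desaturase Scd1 and the acyltransferase Gpam were higher (adjusted p 0.0346 and 0.045), and the fatty acid transporter Cd36 and Thrsp, a lipogenic regulator, were among 3 that were lower (adjusted p 0.00514 and 0.0129).

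The difference between the cell types was then compared between 3 and 9 weeks. The test of this difference (limma) called 0 of 14060 genes (0%), with 493 at an unadjusted p under 0.05, and also 0 with the replicate term, with 834. The 3-week mature luminal group is 1 array and was assumed to vary like the others. The 5 genes with the smallest p in each direction are named. The gap (3 minus 9 weeks) was above 0 for Lgals1 (2.88), Kif26b (6.15), Aldh1a1 (4.93), Ccn4 (6.66) and Vpreb1 (7.20). It was below 0 for Islr2 (-5.89), Vsig10l (-5.78), P4hb (-1.88), Lrrc74b (-5.85) and Gm38529 (-5.32). Vpreb1, a surrogate light chain of B cell precursors, read 9.95, 2.50 and 4.58 against 3.35, 3.01, 4.20 and 3.75. All of these gaps rest on the single 3-week mature luminal array, which was also high in leukocyte markers. The part of leukocytes in them was not tested. The median contractile difference was -1.39 at 3 weeks and -2.98 at 9 weeks, and the median endothelial difference was -2.96 and -3.79.

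The same contrast was available in 6 arrays of pregnant mice, 3 mature luminal and 3 stem, from days 10 and 16, none of which entered the fit of the 7 arrays. In them 645 genes were lower in mature luminal cells (4.59%) and 93 higher (0.661%). Of the 165 genes lower in virgins, 153 had the same sign in pregnancy (92.7%) and 56 were also called, and all 17 higher genes had the same sign and 3 were called. Over all genes tested 59.5% had the same sign.

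Of the contractile genes, 13 of 21 were called lower in pregnancy, against 5 in virgins. The median difference of the list was -3.55 in pregnancy and -2.34 in virgins, and its median change between the states was 1.33. No single change was called by limma, against 0.192% over all genes, and 3 had an unadjusted p under 0.05. With the replicate term 3 were called above 0, against 2.6% of all genes. In the separate fits of 7 and 6 arrays, Actg2 differed by -6.20 in virgins and -6.01 in pregnancy, Acta2 by -3.47 and -3.10, and Cnn1 by -4.99 and -5.14. The model of all 23 arrays gave -6.07 and -6.20 for Actg2, -3.21 and -3.07 for Acta2, and -4.68 and -5.09 for Cnn1. In that model the difference between the states was 0.13 ± 1.14, -0.14 ± 0.78 and 0.41 ± 1.42 for these 3 genes. Such errors leave room for differences of more than 1 unit.

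Krt5 and most basal markers were called in pregnancy. Krt5 read 9.30, 8.42 and 5.67 on the mature luminal arrays of day 10, replicates 1 and 2, and of day 16, and 12.39, 11.93 and 12.23 on the stem arrays in the same order (-4.39, adjusted p 0.0123). Of the 17 basal markers 16 were lower in mature luminal cells of pregnant glands. The change of the Krt5 difference between the states was 4.26 ± 1.49 and missed the threshold (adjusted p 0.316), but passed with the replicate term (4.65, adjusted p 0.0346). For Snai2 it was 4.16 ± 1.0 (adjusted p 0.117, and 0.0266 with the term), and for Trp63 2.14 ± 1.38 (adjusted p 0.658, and 0.336 with the term).

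Endothelial markers were not called in pregnancy, 0 of 16 by limma, against 4.59% of all genes called lower. Of the 16, 6 were lower at an unadjusted p under 0.05, and the median difference was -1.02. Pecam1 read 4.06, 5.42 and 4.03 on the mature luminal and 4.44, 4.91 and 5.37 on the stem arrays of pregnant mice, against 8.43 or more on the stem arrays of virgins. The list averaged 5.96 to 6.62 on the pregnant stem arrays and 9.11 to 11.22 on the virgin stem arrays. The change of the difference between the states was called for 0 of the 16 genes in the model of all arrays, where 0.192% of all genes were (6 had an unadjusted p under 0.05), and for 3 with the replicate term (3.18% of all genes), Pecam1 (-3.14, adjusted p 0.0459), Emcn (-3.96, adjusted p 0.0299) and Erg (-3.84, adjusted p 0.0383).

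**Figure D5:**
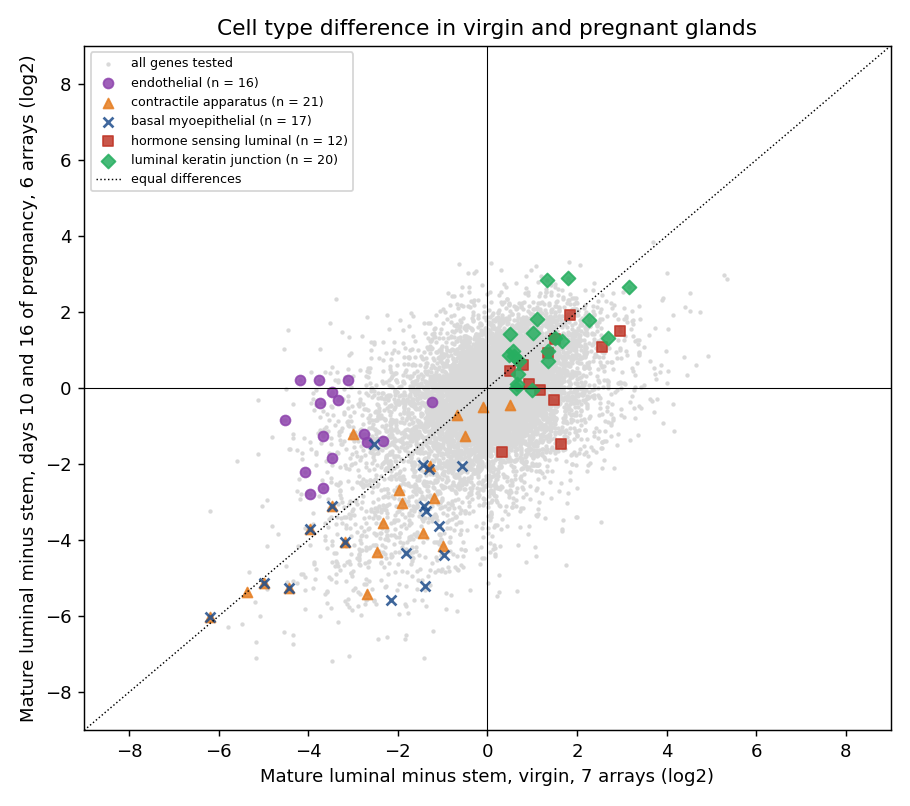
Mature luminal minus stem difference (log2) of each gene tested, in virgins on the horizontal axis (7 arrays) and in pregnancy on the vertical axis (6 arrays), with members of 5 lists coloured and a dotted line of equal differences. Actg2 (-6.20 and -6.01) lies near the line, endothelial genes lie near 0 on the vertical axis or between it and the line, and most basal markers lie below the line.

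Over all genes, 27 had a cell type difference that changed between virgin and pregnant glands in the model of all 23 arrays, 26 of them with a higher value in virgins (0.185%) and 1 with a lower one (0.00711%). With the replicate term the numbers were 365 (2.6%) and 82 (0.583%). The count of 27 depended on single arrays. It was 2 without the 3-week virgin mature luminal array, 5 and 12 without replicates 1 and 2 of the mature luminal arrays of day 10, 1 without either stem array of day 10, and 0 without the mature luminal or the stem array of day 16. In omissions chosen after seeing the data, it was 16 and 31 without replicates 2 and 1 of the 9-week mature luminal arrays, 4 and 1 without replicates 1 and 2 of the 3-week stem arrays, and 2 and 38 without replicates 1 and 2 of the 9-week stem arrays. The single gene below 0 was Esm1, the endothelial proteoglycan endocan. In virgins it read 8.19, 4.38 and 3.76 on the mature luminal and 10.42, 10.07, 10.02 and 10.26 on the stem arrays (-4.46 ± 0.77, adjusted p 0.0302). In pregnancy it read 8.91, 7.32 and 5.78 against 7.12, 5.75 and 4.56, so that each mature luminal array exceeded the stem array of the same day and number. Next by p on the side below 0 were Flt4 (-4.30), Ly6i (-6.22), Grb10 (-2.98) and Amigo2 (-3.49). They were not called by limma in this model, but were with the replicate term.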

How the data were processed

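Affymetrix arrays of biotin-labelled cRNA were compared, 7 of 23. The authors deposited 1 table of log2 signals for 45101 probe sets; the log2 scale was read from its values, and the software and scaling are not given in the sources used here. Detection calls were not used. The 34945 probe sets with 1 gene symbol in the platform annotation named 18193 genes, and each gene was represented by its probe set with the highest mean over the 23 arrays. No array was present more than once, since each differed from every other in 99.0% or more of the probe sets.

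Genes were fitted in limma 3.58.1 (R 4.3.3) with cell type and age, an intensity trend, 4 residual and 5.81 prior degrees of freedom, and Benjamini-Hochberg adjustment over 14060 genes. All tests were two-sided, and values after ± are standard errors. For 3 against 9 weeks, and for virgin against pregnant glands (all 23 arrays), a model with 1 mean per group was used. The main fit was tested on simulated data in which some genes were changed by known amounts. It called 58% and 60% of the genes changed by -4 and 4, and 8% of those changed by -2 or by 2. A gene that was not called can thus still differ. Array number limits the precision.

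Titles number the arrays of 3 groups. Deviations from the group means correlated between equal numbers at 0.377, 0.312 and 0.567, so the numbers were taken to pair the arrays, and values with a replicate term are given where they change a call.

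Most genes named in the text were drawn by rule. The rule took up to 12 called genes per direction with the largest difference and separate groups, and a fixed set of markers. It also took called members of the 30 lists and members by smallest p, not all of which are named. In the tests between ages and states it took up to 5 genes per direction. The arrays, the 541 list genes and this rule were chosen with earlier results of these data known. Alternatives covered the replicate number, the arrays entering, normalization, a floor, the filter, the choice of probe set and the intensity trend.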

Additional observations from a re-analysis of the deposited data

Results flagged for a closer look

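Beside Esm1, whose mature luminal minus stem difference was lower in virgin than in pregnant glands by a test of the change itself (-5.51 ± 0.82, limma adjusted p 0.0246), the change of the difference was tested and called in the opposite direction for 5 further genes named by the rule. The cell type difference of Ptn, the heparin-binding growth factor pleiotrophin, was 0.58 in virgins and -2.80 in pregnancy in the model of all 23 arrays, a change of 3.38 ± 0.32 (adjusted p 0.00424). In pregnancy Ptn read 11.33, 11.77 and 7.40 on the mature luminal arrays of day 10, replicates 1 and 2, and of day 16, and 12.72, 12.28 and 12.06 on the stem arrays. The day 16 mature luminal array was the lowest of these.

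The change was 4.62 ± 0.54 for Cers6, a ceramide synthase (adjusted p 0.0151), 5.60 ± 0.72 for Sorcs2, a sorting receptor (adjusted p 0.0246), 4.30 ± 0.57 for Fgg, the fibrinogen gamma chain (adjusted p 0.0246), and 3.69 ± 0.51 for Dsp, the desmosomal protein desmoplakin (adjusted p 0.0246). For each of these 4 genes the virgin difference lay between 0.31 and 0.94 and the pregnancy difference between -5.29 and -3.32. The calls rest on single arrays for day 16.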

How the results depend on the processing

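The count of 182 genes became 764 with the replicate term, 488 with the replicate block on the 6 numbered arrays, 654 within the arrays not titled replicate 1, 275 in the model of all 23 arrays, 34 at 9 weeks alone and 19 without the intensity trend. It ranged from 2 to 159 with 1 array left out. Quantile normalization, a floor at the array median, no filter and the mean of all probe sets gave 239, 179, 169 and 147. The virgin against pregnancy count of 27 became 447 with the replicate term, 141 with the floor and 0 for day 10 against 9 weeks alone, and ranged from 0 to 38 with 1 virgin or pregnancy array left out. The 3 against 9 weeks count stayed at 0 in all settings run, including the omission of single arrays, which was chosen after seeing the data, as were the omissions of 9-week mature luminal and of stem arrays of virgins from the pregnancy comparison. No call named in the text reversed. Among uncalled genes, some differences changed sign. With 1 array left out, Krt5 ranged from -2.13 to 0.44, Krt14 from -1.23 to 0.11 and Trp63 from -2.62 to 0.16, the last value of each being that without replicate 2 of the 9-week mature luminal arrays, which was low for all 3. In the same omissions Itga6 ranged from -0.34 to 0.28, Lgr5 from -4.40 to 0.83, Hbb-b2 from -0.60 to 1.47, Vpreb1 from -0.43 to 3.69 and Dsp from -0.33 to 0.59. Itga6 turned to 0.00 with quantile normalization and to 0.07 with the mean of probe sets, and Kit to 0.14 within the arrays not titled replicate 1. Hbb-b2, Vpreb1 and Dsp turned to -0.60, -0.44 and -0.33 with the block and to -0.60, -0.43 and -0.33 at 9 weeks alone. Signals below the 40th percentile carry background, which limits the size of the differences named there.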
